A study of Mus musculus with 16 samples.

Results

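The regions described here are sites of END-seq signal that were found in the cardiac myocytes of every Lmna knockout mouse of the study and of some, but not all, wild-type mice. Peaks of 6 END-seq lists were merged where they overlapped by at least 1 bp, on chromosomes 1 to 19 of mm10. The members are the merged regions with a peak in all 3 knockout lists and in exactly 1 or 2 of the 3 wild-type lists. They number 6775 of 43619 regions, or 15.5% of all regions tested against this rule. Presence of a peak chose the members, so their presence and their height in these lists are given as a description, without a test.

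Myocytes were isolated by Langendorff perfusion from 3 Myh6-Cre:LmnaF/F mice (cKO below) and from 3 wild-type (WT) mice, with 1 list per mouse. In cKO mice, Cre driven by the promoter of Myh6, a cardiac myosin heavy chain gene, removes Lmna, which encodes lamin A and C, from myocytes. A group with Cre and an intact Lmna is not among the labels, so effects of Cre and of the deletion cannot be told apart. The labels used here give no age, sex or batch, and the lists give no read totals, which leaves their depth unknown.

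END-seq captures the ends of DNA double-strand breaks by joining an adapter to them and sequencing outward from the break, so its signal stands beside the broken position. Lamin A and C form part of the meshwork beneath the inner nuclear membrane that holds chromatin at the nuclear edge, and loss of Lmna causes dilated cardiomyopathy. Recurrent break sites are known from other cells at gene starts, at very long genes and at repeated sequences.

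Some lists stood apart from the others or went against their labels. In the list labelled cKO 1, peak names start with WT-4, the same prefix as in WT 3, while the other lists have names of their own genotype. Of the peaks of WT 3, 57 (0.676%) shared both ends with a peak of cKO 1, and 0 of these shared the fold as well. The list keeps the name cKO 1 because its label says so. Values for counts, gene shares, summits, hexamers, the strongest members and the densest windows are also given without it, and folds and rank correlations are given list by list. Leaving it out loosens the rule, so members are kept almost by construction. Such values do not show from which genotype the list came. Chromosome X held 2.71% of the peaks of cKO 1 and 2.35% of those of WT 2, and 5.26% to 6.07% in the other 4 lists. Chromosome Y held 1.64% of the peaks of cKO 1 (489 peaks), 1.35% of those of WT 2 (211 peaks) and 1.60% of those of WT 1 (23 peaks), and 0.0801% to 0.214% in cKO 2, cKO 3 and WT 3. The lists differed in length, with 28445, 12808 and 21118 peaks on chromosomes 1 to 19 in the lists of cKO 1, 2 and 3, against 1238, 14881 and 7790 in the lists of WT 1, 2 and 3. A missing peak in a short list does not show that breaks were absent there.

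Sequence next to the summit, the highest point of a peak, is shown first, because member summits recurred to within a few bases and the letters beside them were shared. No genome of the build was used here, so sequence was read only from RefSeq promoter windows on GRCm38.p6 (mm10), which run from 250 bases before a gene start to 50 after it. There were 31396 such windows, 75 members overlapped one, and 33 had their summit and 50 bases on each side inside one. The 8 sequences below belong to the members with the highest mean fold over the 3 cKO lists among 14 that hold one of 6 hexamers in the flank on the side of the nearer peak end and lie upstream of the gene start. Each runs away from the summit, which is its base 11 (the median of the 3 cKO summits). Capitals mark the 6 hexamers where they lie wholly at base 15 or later. These are CGGAAG (in an outward flank of 2.59% of all promoter windows), AGAGCG (1.92%), GAGCGG (2.77%), GAAGAG (3.86%), GGAAGA (4.06%) and AGGAAG (6.04%).
Tbce, chr13:14039820-14039880, plus strand: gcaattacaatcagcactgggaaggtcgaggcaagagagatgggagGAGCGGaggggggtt
Gm39443, chr11:109653779-109653839, plus strand: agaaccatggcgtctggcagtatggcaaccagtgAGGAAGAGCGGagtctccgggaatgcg
Gm14066, chr2:139306950-139307010, plus strand: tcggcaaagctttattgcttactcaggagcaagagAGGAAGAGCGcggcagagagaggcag
Kif23, chr9:61946934-61946994, minus strand: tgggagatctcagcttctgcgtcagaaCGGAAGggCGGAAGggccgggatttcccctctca
Mindy1, chr3:95282867-95282927, minus strand: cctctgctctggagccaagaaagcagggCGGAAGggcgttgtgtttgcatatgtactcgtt
Rnf39, chr17:36942891-36942951, minus strand: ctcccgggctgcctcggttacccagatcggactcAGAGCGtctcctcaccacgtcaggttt
Faf2, chr13:54621653-54621713, plus strand: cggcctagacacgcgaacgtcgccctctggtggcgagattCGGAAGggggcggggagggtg
Phf23, chr11:69995542-69995602, minus strand: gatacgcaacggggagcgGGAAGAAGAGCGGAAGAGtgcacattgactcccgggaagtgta

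All 8 of these members had peaks in the 3 cKO lists and in WT 2 and WT 3. At Kif23, which encodes a kinesin of the cell division midzone, folds over background were 47.1, 34.4 and 41.1 in the lists of cKO 1, 2 and 3, against 43.4 and 29.2 in WT 2 and WT 3. Its summits lay at positions 61946984, 61946983 and 61946985 in the cKO lists, against 61946988 and 61946978 in the WT lists. At Phf23, a gene for a PHD finger protein, folds were 45.6, 29.4 and 25.8 in the cKO lists, against 29.7 and 15.6 in WT 2 and WT 3. Within each list, the fold at Kif23 lay above the median of all members, and that at Phf23 lay below it in cKO 3 and WT 3. At Tbce, which encodes a tubulin folding cofactor, summits spread over more bases, with 14039823, 14039842 and 14039830 in the cKO lists, against 14039837 and 14039819 in WT 2 and WT 3.

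The 6 hexamers were the most frequent ones, relative to all promoter windows, in the flanks of the 33 members, from 5 to 50 bases past the summit and read outward on either strand. They overlap each other and were chosen on these 33 members, so their share there is a description. At least 1 of them stood in an outward flank in 28 of 33 members (84.8%), and in 7 (21.2%) when the same flanks were read inward. Without cKO 1 the outward share was 84.8%. In windows of the same length around the centre of all promoter windows the shares were 15.9% outward and 15.9% inward. The most frequent, CGGAAG, stood in an outward flank in 12 of 33 members (36.4%). The heptamer GGAAGAG stood in 11 members (33.3%) and in 1.49% of the windows. The hexamers began a median of 24 bases from the summit, with quartiles of 18 and 28 bases. The shares in regions that took no part in choosing the hexamers also leaned outward. In 40 other regions found in at least 2 lists the shares were 55.0% outward and 7.50% inward, and in 179 regions found in 1 list they were 34.6% and 14.5%. With hexamers included, 62.5% of bases 20 to 45 positions past member summits toward higher coordinates were A or G on the plus strand. On the side of lower coordinates the share was 43.5%, and in all promoter windows the shares were 50.1% and 49.9%. The 40 other regions in at least 2 lists had 60.6% and 42.4%, close to the members, and regions of 1 list had 53.2% and 47.1%. The hexamers are rich in A and G and were chosen on these members, so the member shares are not separate from them.

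The letters also stood on a fixed side of the peak. The side on which the summit lies within its peak was not used to choose the hexamers. In the flank on the side of the nearer peak end, 27 of 33 members (81.8%) held a hexamer, against 4 (12.1%) on the other side. For the 40 other regions in at least 2 lists these shares were 52.5% and 2.5%, and 1 flank of a promoter window held a hexamer in 8.13% of cases. As background, the common Illumina adapter contains the letters CGGAAG and GGAAGAG, and the latter holds the hexamers GGAAGA and GAAGAG. The labels name an Illumina library protocol but not the adapter, and whether adapter sequence has a part in these peaks was not tested. The 33 members are 0.507% of the 6503 members on chromosomes with promoter windows, so nothing here describes the sequence of the others.

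Most members were found in the same WT mouse. WT 2 held 6670 of the 6775 members (98.5%), WT 3 held 3261 (48.1%) and WT 1 held 27 (0.399%). A peak in WT 2 alone marked 3493 members (51.6%), and a peak in both WT 2 and WT 3 marked 3157 (46.6%). The other patterns were rare, with 98 members in WT 3 alone, 20 in WT 1 and WT 2, 6 in WT 1 and WT 3 and 1 in WT 1 alone. The members took up 23.8%, 52.9% and 32.1% of the peaks of cKO 1, 2 and 3, against 2.18%, 44.8% and 41.9% of those of WT 1, 2 and 3. The mean share was 36.3 ± 14.98% in cKO lists and 29.6 ± 23.8% in WT lists (SD, n = 3 each), and the 2 groups overlapped. Without WT 1 the rule gave 7256 regions, which hold 99.99% of the members, and without WT 2 it gave 3763, which hold 48.4%. With a WT list left out, a peak in either or both of the remaining WT lists was enough, so regions found in all 6 lists joined. This holds for every value given without a WT list. Without cKO 1 the rule gave 6994 regions, which hold 100% of the members. Leaving out a cKO list only loosens the rule, so members are kept almost by construction.

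**Figure D1:**
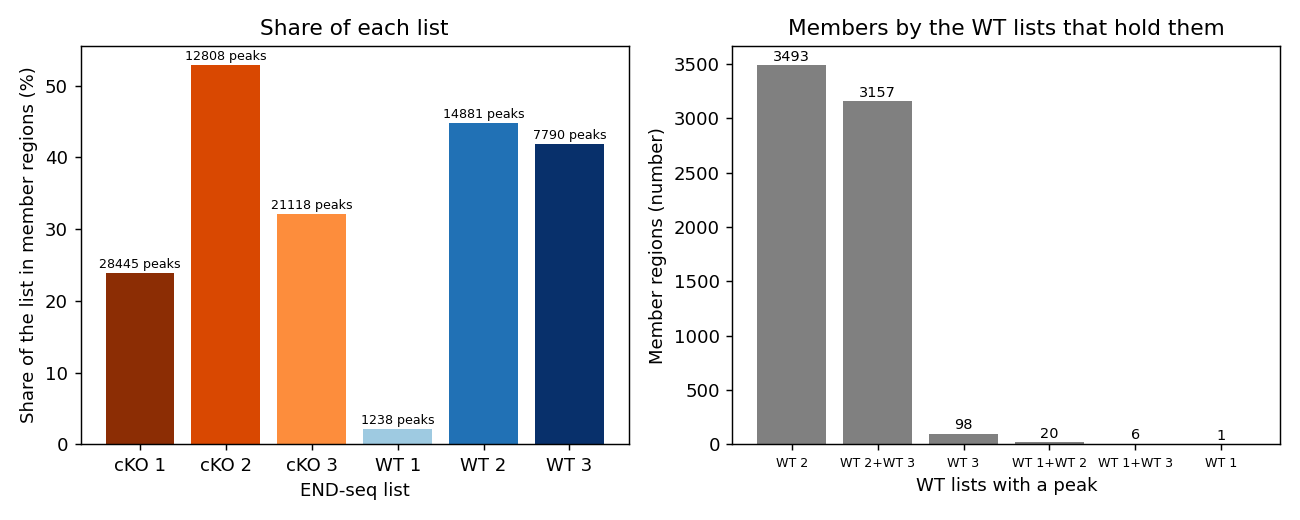
Left, share of each END-seq list that lies in member regions (percent of peaks on chromosomes 1 to 19, with the length of the list above each bar). Right, number of members by the WT lists that hold them; WT 2 alone and WT 2 with WT 3 account for 3493 and 3157 of 6775 members.

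Members were among the highest peaks of the longer lists. The authors' fold is a linear ratio of a peak to its own library's background, so it ranks peaks within a list. Folds of different lists are set side by side as a description, with no test and no reading of one as a change against another. The median fold of members was 33.3, 23.9 and 27.1 in the lists of cKO 1, 2 and 3, and 9.22 (27 peaks), 21.8 and 16.6 in the lists of WT 1, 2 and 3. Of the strongest 10% of peaks, 80.2%, 74.5% and 80.7% lay in members in the lists of cKO 1, 2 and 3, against 0.813%, 75.5% and 66.1% in the lists of WT 1, 2 and 3. In WT 1, 95.1% of the strongest 10% lay instead in the 481 regions found in all 6 lists. Of the weakest 10% of peaks, 0.598%, 0.859% and 0.332% lay in members in the cKO lists, against 2.44%, 3.09% and 1.03% in the WT lists. Members with 2 WT lists had median folds of 39.2, 29.7 and 34.7 in the lists of cKO 1, 2 and 3, and members with 1 WT list had 29.2, 19.8 and 21.8. The 1443 regions with all cKO lists and no WT list had 20.4, 13.3 and 13.8, and the 481 regions in all 6 lists had 51.1, 42.3 and 47.9. Within each cKO list the median thus followed the number of WT lists with a peak.

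**Figure D2:**
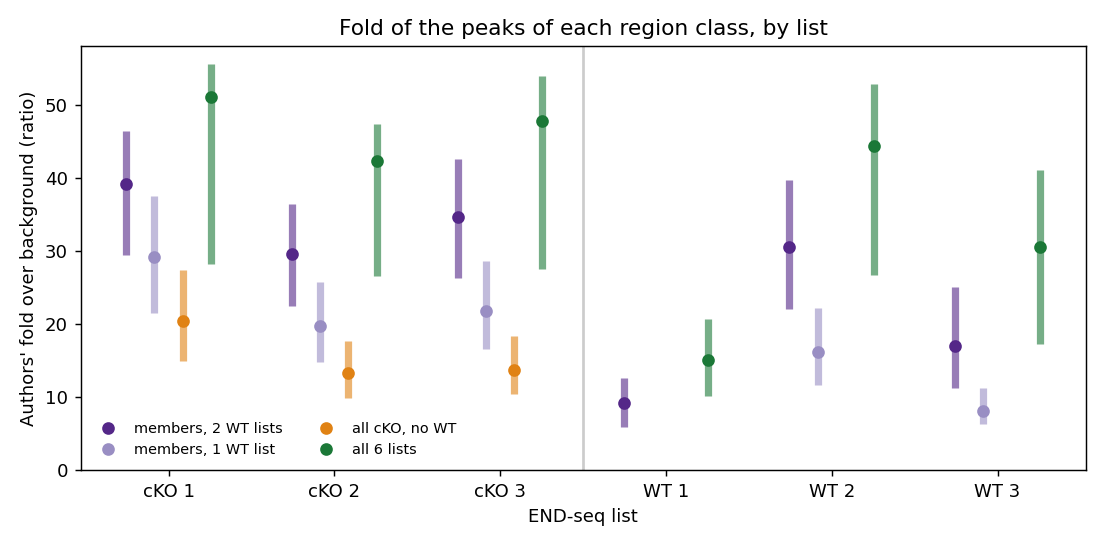
Authors' fold over background (ratio) of the peaks in 4 region classes, by END-seq list; points are medians and bars run from the lower to the upper quartile over regions, drawn for classes with at least 20 peaks in a list. In each cKO list the medians order by the number of WT lists with a peak, for example 20.4, 29.2, 39.2 and 51.1 in cKO 1 for 0, 1, 2 and 3 WT lists.

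The rank of a member by fold was much the same in every knockout list. Spearman's rho over the 6775 members was 0.83 between cKO 1 and cKO 2, 0.86 between cKO 1 and cKO 3 and 0.89 between cKO 2 and cKO 3. Between cKO lists and WT 2 it was 0.74 to 0.86 over 6670 members, between cKO lists and WT 3 it was 0.64 to 0.79 over 3261, and between cKO lists and WT 1 it was 0.34 to 0.37 over 27. Between WT 2 and WT 3 it was 0.87 over 3157. These points share the sequence of the site, its mappability and a floor set by peak calling, so the values are a description. The highest of the 3 cKO folds was in cKO 1 for 5216 members (77.0%), in cKO 3 for 1145 (16.9%) and in cKO 2 for 414 (6.11%). Member peaks had a median width of 198 ± 16.0 bp in cKO lists and 174 ± 16.6 bp in WT lists (SD over lists, n = 3 each), and the widest WT list, at 186 bp, lay above the narrowest cKO list, at 183 bp.

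The 10 members with the highest mean cKO fold were all found in WT 2 and WT 3. The highest lay at chr16:28021687-28022010, 135773 bp from Fgf12, a fibroblast growth factor homologue that binds sodium channels. Its folds were 59.8, 53.1 and 59.1 in the lists of cKO 1, 2 and 3, against 58.8 and 49.9 in WT 2 and WT 3. Each lay above the member median of its own list, and the summits of the 5 lists fell within 5 bp. A member in Pdzd2, which encodes a protein with PDZ domains, had 61.3, 49.4 and 61.1 in the cKO lists, against 61.3 and 49.6 in WT 2 and WT 3. Another in Cdc14a, a phosphatase of the cell cycle and cilium, had 64.2, 47.0 and 55.7 in the cKO lists, against 45.6 and 22.9 in WT 2 and WT 3, each above the member median of its own list. By the mean over cKO 2 and cKO 3, without cKO 1, 8 of these 10 were again among the strongest 10. Without WT 2, when regions found in every list joined the members, 0 of these 10 were among the strongest 10. The 7 not described above lay in Ddhd2 and Mrpl3 and outside genes nearest to Ddhd1, Cdc42se2, Asns, Chst1 and Rprml, with mean cKO folds of 55.0 to 56.0.

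Some strong sites also occurred in the rarer patterns, and the strongest of a pattern are named here. The median of the mean cKO fold was 18.5 for WT 3 alone and 10.1 for WT 1 with WT 3, against 28.0 over all members. For WT 1 with WT 2 it was 32.7. Cdh12, a neuronal cadherin gene, held a member with folds of 56.8, 40.1 and 55.5 in the lists of cKO 1, 2 and 3, against 19.1 in WT 1 and 46.3 in WT 3, and with no peak in WT 2. In Cars2, the gene of the mitochondrial cysteine tRNA synthetase, a member had 57.4, 45.1 and 50.1 in the cKO lists, against 39.1 in WT 3 as the sole WT peak. In Klra17, a gene of the natural killer receptor family, folds were 58.4, 40.1 and 47.9 in the cKO lists, against 15.6 in WT 1 and 42.5 in WT 2. The single member found in WT 1 alone, at chr6:57564855-57565085 near Herc6, had 27.1, 17.8 and 14.4 in the cKO lists, against 4.88 in WT 1. The members in Cdh12 and Cars2 had high peaks in all knockout lists and no peak in WT 2.

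At the edges of the rule, the weakest member lay at chr8:20413753-20414063 with folds of 3.80, 4.22 and 3.27 in the lists of cKO 1, 2 and 3, against 4.46 in WT 3. Just outside the rule on the WT side, the highest region with 0 WT lists lay 45435 bp from Ubash3b and had 56.8, 39.7 and 52.9 in the cKO lists. The highest region with 3 WT lists, 581329 bp from Agtr1b, had 64.7, 57.0 and 63.9 in the cKO lists, against 35.9, 61.3 and 52.3 in the lists of WT 1, 2 and 3. On the knockout side, 2254 regions with 1 or 2 WT lists lacked a peak in cKO 2 alone, 483 lacked one in cKO 3 alone and 219 lacked one in cKO 1 alone. The regions without a cKO 2 peak had median folds of 21.5 in cKO 1 and 15.8 in cKO 3, against 12.9 in WT 2 and 9.39 in WT 3.

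Within members the summits of different mice fell almost at the same base. The median distance between the summits of 2 lists was 5 bp for each of the 3 pairs of cKO lists and 5 or 6 bp between any cKO list and WT 2 or WT 3. Pairs with WT 1, which rest on 6 to 27 members, had medians of 6 to 11 bp. The range over the 3 cKO summits had a median of 8 bp, and in 89.2% of members it was within 20 bp. It exceeded 100 bp in 44 members. Where the summit lies within a region was not used by the rule, so it was tested. The mean of the pair medians was 7.11 ± 2.26 bp over the 9 pairs of different genotypes and 6.08 ± 1.74 bp over the 6 pairs of one genotype (SD over pairs), a difference of 1.03 bp. An exact permutation test over the 10 splits of the 6 lists into 3 and 3, one-sided, gave p = 0.2, where 0.1 is the smallest p possible, so the call could not pass 0.05 in this design. With the mean in place of the median distance of each pair, the difference was 3.99 bp with an exact permutation p of 0.1, the smallest possible. By medians it was 0.17 bp without WT 1, whose pairs rest on few members, 0.17 bp without cKO 2, 0.50 bp without WT 3, -0.29 bp without cKO 1 and -0.17 bp without cKO 3.

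**Figure D3:**
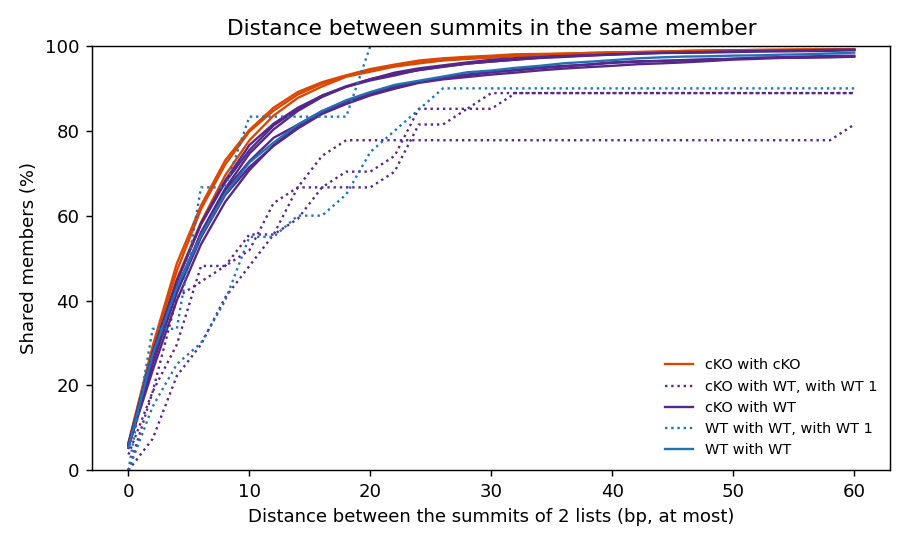
Cumulative share (percent) of shared members by the distance between the summits of 2 lists (bp), 1 line per pair of lists, coloured by genotype of the pair; dotted lines are pairs with WT 1, which rest on at most 27 members. Solid lines of all 3 kinds lie close together, with medians of 5 or 6 bp.

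The summit stood at one end of the peak rather than at its middle. In cKO 1, cKO 2 and cKO 3, 92.3%, 92.3% and 92.1% of member peaks had the summit in the outer 20% at either end, against 87.5% in WT 2, 84.5% in WT 3 and 59.3% of 27 peaks in WT 1. The middle 20% of the peak held 1.24% to 1.48% in the cKO lists, against 1.38% in WT 2 and 2.76% in WT 3. The median distance from the summit to the nearer end was 20, 17 and 18 bp in the cKO lists, against 18 and 19 bp in WT 2 and WT 3. Both directions were about as frequent, with 3390 members having the summit near the low end in all 3 cKO lists and 3276 near the high end.

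The side was the same from mouse to mouse. In 6666 members (98.4%) all 3 cKO lists had the summit on the same side, and in 6570 (97.0%) every list with a peak did. Without cKO 1, the share with the same side in the 2 remaining cKO lists was 98.3%. In regions with all cKO lists and no WT list the 3 cKO lists had the same side in 94.1%, and in regions of all 6 lists in 89.4%. The summit lay in the outer 20% at either end in most peaks of these 2 classes too. With no WT list the shares were 83.6%, 80.0% and 80.2% in the lists of cKO 1, 2 and 3. In regions of all 6 lists they were 76.5%, 76.1% and 76.9%. Among peaks of regions found in 1 list alone, the share was 61.9%, 37.5% and 44.0% in the lists of cKO 1, 2 and 3, against 45.9% and 31.6% in WT 2 and WT 3. Those regions also hold 81.2% to 90.0% of the weakest 10% of peaks in the cKO lists, and the part of peak height in the position of the summit was not tested. Peaks carry no strand in the deposited lists, and how the caller extended or shifted reads is not stated in the sources used here.

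**Figure D4:**
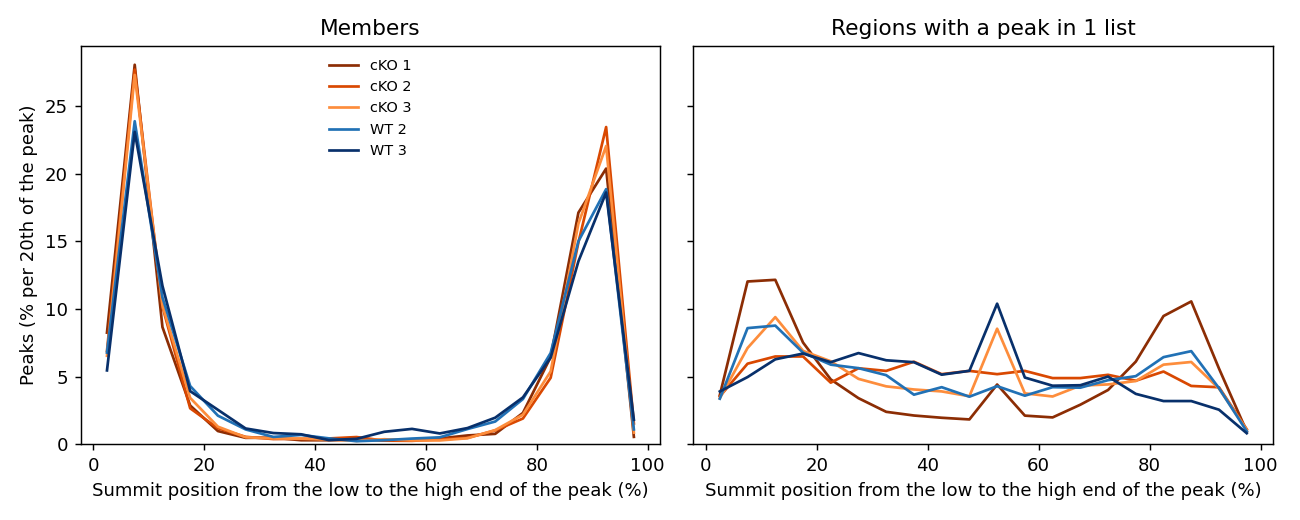
Position of the summit within its peak, from the low to the high coordinate end (percent of peak length), as the share of peaks (percent) in each 5% of the peak, for members (left) and for regions with a peak in 1 list (right). In members the 5 lists drawn have 2 peaks near the ends, with 84.5% to 92.3% of summits in the outer 20% at either end; WT 1 is not drawn.

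The densest group of members lay in a repeated gene array on chromosome 7. The 1 Mb window from 59 Mb held 55 members among 82 regions, where windows held a median of 3 members and the next densest held 15. Of these, 53 lay between chr7:59674092 and chr7:59905607, each within 3000 bp of an annotated small nucleolar RNA (snoRNA) gene. This is the Snord116 array, whose C/D box snoRNAs are processed from the long noncoding transcript downstream of Snrpn and whose human counterpart is lost in Prader-Willi syndrome. The array held 70 annotated snoRNA genes with a median spacing of 2527 bp. Of 54 gaps between neighbouring members in the window, 36 were 2400 to 2700 bp long, with a median of 2526.5 bp, and 12 were 4900 to 5300 bp. Members thus recurred once per repeat unit, or after a skipped unit.

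Within the array the position of the site in the unit was almost fixed. The midpoint of a member lay a median of 689 bp from the midpoint of the nearest snoRNA gene, with the nearest at 662 bp and the farthest at 1841 bp. All 53 had the summit near the same end of the peak in every cKO list. For the member at chr7:59867420-59867654, 703 bp from Snord116l16, the mean cKO fold was 18.5, and for that at chr7:59880091-59880331, 706 bp from Snord116l8, it was 30.1. Over the 53 members the mean cKO fold ranged from 10.1 to 31.5 with a median of 19.4, below the median of 28.0 over all members. Median folds were 20.8, 16.7 and 20.2 in the lists of cKO 1, 2 and 3, against 18.6 in WT 2 and 15.7 in WT 3. WT 2 alone held 24 of the 53 and WT 2 with WT 3 held 29, and WT 1 held 0. Without cKO 1 the array held 53 members, and without WT 2 it held 34, among them regions found in all 6 lists. The same stretch had 5 regions found in all 6 lists, 1 with all cKO lists and no WT list and 6 in other patterns. Units of the array are near-identical copies, so reads may have been shared out among them in alignment, for which no setting is given here, and 53 members are not 53 independent sites.

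**Figure D5:**
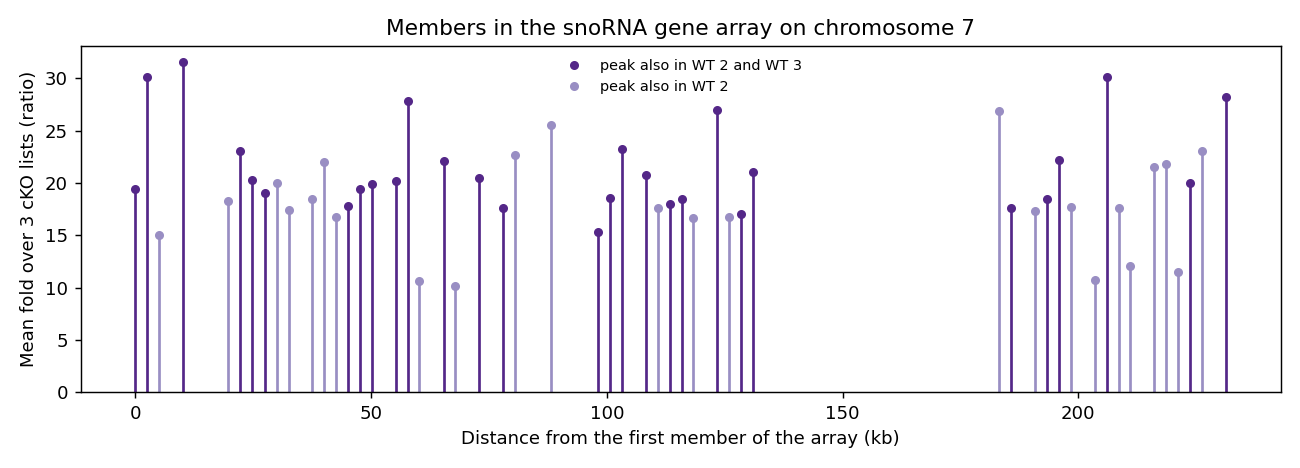
Members in the snoRNA gene array on chromosome 7, by distance from the first member (kb) and mean fold over the 3 cKO lists (ratio), coloured by the WT lists that also hold them. The 53 members recur at about the 2527 bp spacing of the snoRNA genes, with a longer stretch between groups.

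The next windows held 15 members (chromosome 10 from 126 Mb) and 13 (chromosome 13 from 113 Mb, with Cdc20b), and 8 windows tied at 10. Without cKO 1 the 3 densest again held 55, 15 and 13, and without WT 2 they held 35, 24 and 12. Of 2413 windows, 187 windows (7.75%) held 0. Over all members the median distance between neighbours was 235 kb, and 237 kb with the densest window left out, where even spacing would give 355 kb. Without cKO 1 the median was 227 kb. For regions in 1 list the median was 65.9 kb, against 96.4 kb with even spacing. For regions with all cKO lists and no WT list it was 1159 kb, against 1665 kb. A median below even spacing is thus not particular to members. Sites placed at random also have a median gap below their mean gap, so these medians do not show clustering. Density ran from 2.23 members per Mb on chromosome 14 to 3.32 on chromosome 11.

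The share of members in or near genes lay a little above that of all regions. A protein-coding gene span extended by 1000 bp covered 3103 of 6775 members (45.8%, exact Clopper-Pearson 95% interval 44.6% to 47.0%, for counting error only). The share was 42.3% over all regions, 42.0% in regions with all cKO lists and no WT list and 38.5% in regions of all 6 lists. It was 45.02% in the 9987 remaining regions found in at least 2 lists, close to the members, and such spans took up 42.3% of the sequence. Members with 2 WT lists had 47.2% and members with 1 WT list had 44.5%. With all annotated genes the share of members was 56.4%, and without cKO 1 it was 45.2% for protein-coding genes. Within 500 bp of a gene start lay 170 of 6503 members (2.61%), against 2.28% of those remaining regions, 2.24% of all regions and 1.19% of the sequence. Regions are not replicates, so no p is given. The interval treats regions as independent, so it is no test against the other shares.

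Among members at gene starts, Rapgef5, which encodes an exchange factor for Rap GTPases, had the highest mean cKO fold. Its folds were 58.0, 44.3 and 45.5 in the lists of cKO 1, 2 and 3, against 55.5 and 44.8 in WT 2 and WT 3, each above its list's member median. At Ogdh, the gene of a subunit of the 2-oxoglutarate dehydrogenase of the citric acid cycle, folds were 50.1, 38.8 and 49.2 in the cKO lists, against 50.4 and 35.3 in WT 2 and WT 3, again above the medians. At Lrrc8a, a subunit of the volume-regulated anion channel, they were 52.9, 40.9 and 50.03 in the cKO lists, against 49.5 and 26.9 in WT 2 and WT 3. The other 7 of the 10 strongest lay near starts of Dhx37, Zwint, Fam222a, Crlf3, Nisch and of predicted transcripts beside Itpr1 and in Gfra1. A pair of members overlapped a microRNA hairpin, Mir153 in Ptprn2 and Mir7053 in Pold1. Mir153 had folds of 21.8, 20.7 and 30.2 in the cKO lists, against 24.0 and 12.9 in WT 2 and WT 3.

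In all, 2455 of 20665 protein-coding genes (11.9%) had at least 1 member, and the share grew with gene length. It was 1.91% in the shortest 20% of genes, with a median length of 1.70 kb, and 35.7% in the longest 20%, with a median of 109 kb. Members per 100 kb ran the other way, with 0.473 in the shortest 20% and 0.299 in the longest. Genes with exactly 1 member numbered 1963, and 164 had at least 3. Without cKO 1, 2492 genes had a member.

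The 10 genes with the most members were 567 to 2058 kb long. Macrod2, which encodes an enzyme that removes ADP-ribose from proteins, held 10 members over 1998 kb. Nkain2, Cdh13 and Tenm3 held 8 each. Nkain2 encodes a membrane protein that interacts with the sodium pump, Cdh13 encodes T-cadherin and Tenm3 a teneurin adhesion receptor. Lrp1b, an LDL receptor relative, and Dlg2, a synaptic scaffold, held 7 each, and Cdh12, Asic2, Fam155a and Rbfox1 held 6 each. Without WT 2, Macrod2 had 4 members, Dlg2, Fam155a and Rbfox1 had 2, 2 and 3, and Tenm3 and Lrp1b had 1 each. Nkain2 and Cdh13 then had 6 each, and without cKO 1 all 10 counts stayed as they were. Their densities ran from 0.34 members per 100 kb at Lrp1b to 1.05 at Fam155a, where all protein-coding genes together had 0.309. The strongest member of Macrod2 had folds of 53.3, 42.8 and 42.8 in the lists of cKO 1, 2 and 3, against 35.4 and 14.5 in WT 2 and WT 3, and that of WT 3 alone was below the member median of its list. That of Asic2, an acid-sensing ion channel gene, had 51.8, 38.6 and 49.1 in the cKO lists, against 52.1 and 41.9 in WT 2 and WT 3, each above its list's member median. Of the list of very long neuronal genes, 27 of 27 on chromosomes 1 to 19 had a member, at a density of 0.244 per 100 kb, below that of all genes.

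Among genes with at least 3 members, the densest were shorter. Cdc20b, a relative of the cell cycle regulator Cdc20, held 5 members over 86.0 kb, or 5.68 per 100 kb. Smyd4 and Jph2 followed with 5.06 and 4.70 per 100 kb. Jph2 encodes junctophilin-2, which ties the T-tubule to the sarcoplasmic reticulum in myocytes, and its strongest member had folds of 33.0, 23.8 and 27.6 in the lists of cKO 1, 2 and 3, against 23.0 in WT 2 alone. Without WT 2, Jph2 and Xpnpep1 had 0 members and Smyd4 had 1, while Cdc20b had 5. The imprinted gene Grb10, an adaptor that restrains insulin signalling, held 4 members, and the strongest had 53.3, 46.9 and 52.9 in the cKO lists, against 48.9 and 42.4 in WT 2 and WT 3. Smad3, which carries TGF-beta signals to the nucleus, held 3, and the strongest had 50.1, 40.4 and 47.3 in the cKO lists, against 42.8 and 25.5 in WT 2 and WT 3. The others were Adgra3, Pla2g4e, Ralgapb, Clpb and Xpnpep1, at 2.74 to 3.96 per 100 kb.

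Both lists of cardiac myocyte genes had a share with members above that of all genes, and both hold longer genes. Of the contractile apparatus, 7 of 23 genes (30.4%) had a member, against 11.9% of all genes, with a median gene length of 26.1 kb against 17.5 kb. Tnnc1, the calcium-binding troponin subunit, had a member beside its span with folds of 47.5, 37.0 and 48.6 in the lists of cKO 1, 2 and 3, against 42.6 and 29.2 in WT 2 and WT 3. The same member lies within 500 bp of a start of the neighbouring gene Nisch. Tnnt2, the tropomyosin-binding troponin subunit, had one with 42.1, 31.6 and 37.4 in the cKO lists, against 32.8 and 20.1 in WT 2 and WT 3. Csrp3, the muscle LIM protein of the Z disc, had one at the edge of its span with 48.0, 44.0 and 45.9 in the cKO lists, against 41.3 and 30.5 in WT 2 and WT 3, each above its list's member median. Actn2, the Z disc actinin, had 2 members. Of ion channel and calcium handling genes, with a median length of 222 kb, 10 of 21 (47.6%) had a member. Ryr2, the calcium release channel of the sarcoplasmic reticulum, had 1 over 554 kb, with folds of 45.8, 46.5 and 47.9 in the cKO lists, against 45.5 and 25.1 in WT 2 and WT 3. Cacna2d1 and Cacnb2, subunits of the voltage-gated calcium channel, had 4 and 3, and Cacna1d, a pore-forming subunit, had 1. Without WT 2, 4 of 23 contractile and 5 of 21 channel genes had a member, against 7.28% of all genes, and Actn2 and Cacna2d1 had 0. Without cKO 1 the counts of all 12 gene lists were the same. Per 100 kb, contractile genes held 0.525 members and channel genes 0.294, against 0.309 for all genes. Gene length differed between these lists and all genes, and its part in the counts was not tested.

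Genes of energy metabolism, the nuclear envelope and DNA repair were nearer the share of all genes. Per 100 kb these lists held 0.418, 0.507 and 0.128 members, against 0.309 for all genes. Of mitochondrial and fatty acid oxidation genes, 4 of 22 (18.2%) had a member, namely Ppargc1a, Ogdh, Hadha and Esrra. Ppargc1a, a coactivator of mitochondrial biogenesis, had 2, the stronger with folds of 30.3, 22.1 and 25.7 in the lists of cKO 1, 2 and 3, against 26.1 in WT 2, and had 0 without WT 2. Of nuclear envelope genes, 2 of 13 (15.4%) had members. Lmnb1, the lamin B1 gene, had 2 over 45.6 kb, the stronger with 57.1, 48.2 and 55.0 in the cKO lists, against 53.1 and 38.4 in WT 2 and WT 3. Syne1, which encodes nesprin-1 of the outer nuclear membrane, had 4. Lmna itself and Myh6, whose promoter drives Cre, had 0 members, with 1 region of another pattern each. Of DNA damage response genes, 2 of 24 (8.33%) had a member. Trp53bp1, the gene of the repair factor 53BP1, had one with 40.1, 17.6 and 27.1 in the cKO lists, against 21.2 and 9.39 in WT 2 and WT 3, and Xrcc4, of end joining, had one with 14.8, 9.49 and 5.89, against 9.28 in WT 2.

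Matrix genes and markers of other heart cells completed the lists. Of matrix and TGF-beta genes, 4 of 16 (25%) had a member, against 11.9% of all genes, and these were Smad3, Ltbp1, Tgfbr2 and Postn. That list held 7 members, or 0.599 per 100 kb, against 0.309 for all genes. Members were found at 2 of 10 fibroblast markers (Postn and Gsn), 2 of 10 endothelial markers (Erg and Pecam1), 1 of 10 immune markers (Ptprc) and 0 of 9 smooth muscle and pericyte markers. None of the 14 housekeeping genes, with a median length of 6.64 kb, had one. Without WT 2, when 7.28% of all genes had a member, Tgfbr2, Postn, Gsn and Erg had none. A break peak measures no expression, so these counts do not show which cells were in the preparation, and the part of other cell types in the members was not tested. Pecam1, the endothelial adhesion receptor, had folds of 11.1, 16.1 and 13.7 in the lists of cKO 1, 2 and 3, against 12.9 and 4.38 in WT 2 and WT 3.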

How the data were processed

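END-seq peak lists of 6 mice were used, grouped by titles and genotype labels. The lamin A lists (GRCm39) and IgG libraries were not used here. Peaks were called per library in narrowPeak layout, per the file headers. The submitters' processing notes name FastQC, SEACR, DiffBind and mm10, without versions or roles, and name no aligner. The deposited lists give the authors' fold over background (a linear ratio), a score and p and q values as −log10, per the file headers. Every deposited peak had a q of at most 0.01, and all were kept. Depth is unknown, so no interval on depth can be given.

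Peaks on chromosomes 1 to 19 were merged into regions, and the strongest peak of a list in a region gave its fold and summit. Genes came from RefSeq (GRCm38.p6, without strand), with spans extended by 1000 bp. Promoter windows were matched by position. Positions are 1-based. The members and gene lists were chosen with earlier results of these data known. Genes and regions were named by rule: the strongest members, also per WT pattern and at gene starts, genes with the most members or the highest density, Lmna and Myh6, up to 4 per list, and the 5 densest windows. The snoRNA array, the side of the summit, the hexamers and the microRNA hairpins were taken up after their values were seen. GC content and repeats around all summits had been planned but were not run, since no genome was used here. Summit distances were compared by an exact permutation test. Alternatives were a stricter q, lists of equal length, other overlap rules, other gene sets, chromosome X, the replicate number as a block and leaving out each list. Merging, gene overlap and the permutation test were tested on simulated data. The software was Python 3.11.15 with scipy 1.17.1, numpy 2.4.6, matplotlib 3.10.9 and pandas 2.3.3.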

Additional observations from a re-analysis of the deposited data

How the results depend on the processing

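Of 93 values under alternative settings, 61 stayed near the reported value, 30 moved and 2 turned round. Depth is unknown and limits every count, since a region leaves or joins the members when 1 list gains or loses a peak. With every list shortened to 1238 peaks, there were 529 members at 259 genes, with 49.0% within 1000 bp of a gene, a median spacing of 2757 kb, a median fold of 47.2 and 100% with the same summit side in the cKO lists; 93.0% of these 529 were members before. Without WT 1 and with 7790 peaks per list, a setting chosen after seeing the data, 4729 members had 47.4% near a gene, a spacing of 324 kb, a fold of 34.5 and 99.7% with the same side. Leaving out each list in turn gave 3763 to 9028 members (lowest without WT 2), 1504 to 3115 genes, 45.2% to 46.7% near a gene, a spacing of 168 to 403 kb, a fold of 24.9 to 34.9, hexamers in 80.0% to 85.3%, the same side in 97.3% to 98.6% and a summit difference of -0.29 to 0.92 bp, negative without cKO 1 (-0.292) and cKO 3 (-0.167); the cause was not tested. The share near a gene was 44.1% for spans alone and 56.4% for all annotated genes. Hexamers stood in 66.7% with flanks of 30 bases, and the same side in 98.7% at a q of at most 0.00001. The fold, hexamer and side alternatives were chosen after seeing the data. With the replicate number as a block, the summit difference stayed 1.03 bp with an exact permutation p of 0.25; the numbers name separate mice and pair nothing by design. Of 495 counts of members at named genes, 406 stayed within 1.5 times and 89 did not. Without WT 2, Actn2, Cacna2d1, Jph2, Ppargc1a, Xpnpep1, Tgfbr2, Postn, Gsn, Erg, Esrra and Xrcc4 had 0. With every list shortened to 1238 peaks, genes with 0 included Macrod2, Cdh13, Tenm3, Lrp1b, Dlg2, Cdc20b, Ryr2 and Tnnt2. Asic2, Cdh12, Lmnb1 and Smad3 then had 2 each, and Adgra3, Csrp3, Syne1, Nkain2, Ogdh, Grb10, Tnnc1 and Rbfox1 had 1 each.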
